A study of Mus musculus with 9 samples.

Results

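The genes described here encode acyltransferases, enzymes that move a fatty acid between lipids, and were measured in whole mouse lung after long exposure to air, cigarette smoke (CS) or the aerosol of IQOS, a heated tobacco product. The 10 genes were Awat1, Awat2, Dgat1, Dgat2, Mogat1, Mogat2, Plaat1, Plaat3, Plaat5 and Soat1, of 22911 genes that could be named on the array, and they were read by 16 of 56605 probes. Awat1 and Plaat5 were chosen for their measured levels, Awat1 for its signal with CS and Plaat5 for its rise with IQOS, so their values are a description and carry no test. The other 8 genes were chosen as relatives in the same enzyme families.

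Male C57BL/6J mice, 12 weeks old at the start, breathed fresh air, 3.5% CS or 3.5% IQOS aerosol for 6 months, and total RNA of the lung was hybridised to one-colour Agilent arrays. No group carried a further allele or agent. Each group had 3 arrays, named here by group and replicate number (air 1 to air 3, CS 1 to CS 3, IQOS 1 to IQOS 3). The labels do not say whether each array stands for 1 animal, and the spread behind every p-value here is that between these arrays, which may be technical. On each array 64.3% to 68.8% of the probes were well above background, and all 10 genes on a list of lung markers were above background on all 9 arrays. The air and CS arrays shared a slide and the IQOS arrays alone filled another, so slide and IQOS cannot be told apart. Air 3 and the CS arrays lay in the second row of their slide and the other arrays in the first. A level is given as log2 of the probe's signal over the 75th percentile of its array, so that 0 is the 75th percentile, and a change is the difference of 2 group means on that scale. Levels of different probes are not compared, since brightness depends on the probe.

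Neutral lipids are triacylglycerols, sterol esters and wax esters, which cells store in lipid droplets. Dgat1 and Dgat2 attach the last fatty acid of a triacylglycerol, Mogat1 and Mogat2 make the diacylglycerol before it, Awat1 and Awat2 join a fatty acid to a long-chain alcohol to form a wax ester, and Soat1 esterifies cholesterol. Awat1, Awat2, Dgat2, Mogat1 and Mogat2 are of one protein family (DGAT2), Dgat1 and Soat1 of another (MBOAT). The PLAAT enzymes, Plaat1, Plaat3 and Plaat5, work on phospholipids: they cleave a fatty acid from them or pass it to another lipid, and Plaat5 is known as an N-acyltransferase that makes precursors of N-acylethanolamines. Wax ester synthesis by Awat1 and Awat2 is known best from the sebaceous glands of skin, and lipid storage in the lung from alveolar macrophages and lipofibroblasts.

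In the RefSeq annotation of GRCm38.p6, Awat1 and Awat2 lie on chromosome X with Otud6a, Igbp1 and a further DGAT2 family gene, Dgat2l6, between them. Dgat2 and Mogat2 are direct neighbours on chromosome 7, and Plaat3 and Plaat5 lie on chromosome 19 with only Lgals12 between them. RefSeq promoter sequences were matched for 6 of the 10 genes (Awat1, Awat2, Mogat1, Plaat1, Plaat3 and Soat1), and Plaat5, Dgat1, Dgat2 and Mogat2 had no entry in the table used. Each sequence runs over the 250 bases before an annotated start, and 3 motifs of factors known to answer smoke were searched on both strands: GCGTG, the core of the aryl hydrocarbon receptor site, TGACNNNGC, the core of the antioxidant response element, and TGANTCA, the AP-1 site. Among all 32851 such windows 28.2%, 10.2% and 6.75% held them. Awat1 is shown as the gene with signal in CS alone, Awat2 (the second of its entries) as its family neighbour, and Plaat3 (the first of its entries) as the paralog beside Plaat5. Capitals mark a motif match. The windows are chrX:100571997-100572246 (plus strand) for Awat1, chrX:100412588-100412837 (minus strand) for Awat2 and chr19:7557209-7557458 (plus strand) for Plaat3, each printed 5′ to 3′ on the strand of its gene.
Awat1: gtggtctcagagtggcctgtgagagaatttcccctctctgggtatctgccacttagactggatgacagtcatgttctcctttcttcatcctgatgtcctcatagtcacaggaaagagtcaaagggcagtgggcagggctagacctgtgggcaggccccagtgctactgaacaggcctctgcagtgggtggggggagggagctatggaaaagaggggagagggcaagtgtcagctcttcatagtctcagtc
Awat2: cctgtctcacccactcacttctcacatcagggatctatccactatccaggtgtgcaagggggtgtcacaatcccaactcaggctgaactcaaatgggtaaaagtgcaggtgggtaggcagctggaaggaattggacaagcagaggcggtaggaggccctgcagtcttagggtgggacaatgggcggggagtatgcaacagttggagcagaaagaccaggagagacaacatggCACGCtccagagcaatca
Plaat3: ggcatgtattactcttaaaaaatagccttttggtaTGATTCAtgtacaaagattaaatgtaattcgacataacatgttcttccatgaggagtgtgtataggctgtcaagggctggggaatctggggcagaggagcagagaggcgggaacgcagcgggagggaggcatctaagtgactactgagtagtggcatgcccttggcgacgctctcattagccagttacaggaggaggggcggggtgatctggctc
The Awat1 window held none of the 3 motifs. The Awat2 window held 1 GCGTG match, read here as its reverse complement, whose first base lay at position -18 from the start, and the window of the other Awat2 entry held none. The Plaat3 window held 1 TGANTCA match beginning at position -215 from the start, and the overlapping window of its other entry held the same match. Of the genes not printed, Mogat1 held 2 GCGTG matches, and Soat1 held 1 GCGTG and 1 TGACNNNGC match. Both Plaat1 windows held 1 GCGTG match, and that of its second entry also held 1 TGANTCA match. A match is a string of letters and no measurement of binding, and a window without one says only that these letters are not in it.

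Awat1 was well above background in CS-exposed lungs and on no other array. On the CS arrays its level was -1.08, -2.76 and -1.38, or 459, 150 and 410 signal units, and the probe was well above background on each. On the air arrays the level was -7.47, -7.73 and -7.61, or 6.02, 5.03 and 5.52 units. On the IQOS arrays it was -7.60, -7.89 and -7.97, or 5.46, 4.46 and 4.37 units. The probe was well above background on 0 of the 6 air and IQOS arrays, so these values are limits and have no order among themselves. The lowest CS array, CS 2, still lay far above all 6 of them.

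The mean level of Awat1 was -1.74 ± 0.90 (SD, n = 3) in CS, beside measured means of -7.60 ± 0.13 in air and -7.82 ± 0.19 in IQOS. Because the probe was not well above background in air or IQOS, the fold is a lower bound, taken against the lowest signal that counted as well above background on each array of the dim group. On the scanner's background-subtracted signal, Awat1 was at least 12.01-fold higher in CS than in air (bound at a level of -5.33). On the same signal it was at least 13.6-fold higher in CS than in IQOS (bound at -5.50). The difference of the measured means, 5.86 for CS minus air, rests on values below background and does not give the size of the change. With normexp background correction, which raises the faint end, it was 2.76. That is smaller than the bound for CS against air, which therefore holds for the scanner's signal only.

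**Figure D1:**
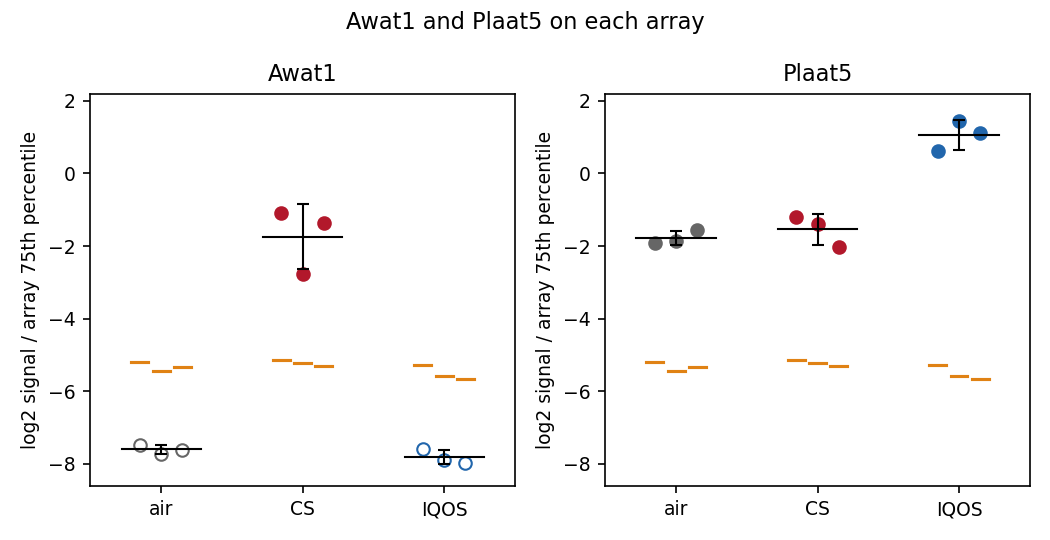
Level of Awat1 (left) and Plaat5 (right) on each array, as log2 of signal over the array's 75th percentile on the y axis, by group on the x axis. Filled points are well above background and open points are not, horizontal lines and bars are group means ± SD (n = 3), and orange dashes mark the lowest level that counted as well above background on each array. Awat1 is above its background limit in the 3 CS arrays alone, and Plaat5 is above it everywhere and highest in the 3 IQOS arrays (0.62 to 1.45).

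Plaat5 was measured in all 3 groups and was highest with IQOS. On the IQOS arrays its level was 0.62, 1.45 and 1.10, or 1624, 2887 and 2354 units. On the air arrays it was -1.92, -1.88 and -1.56, or 282, 290.2 and 367 units, and on the CS arrays -1.19, -1.40 and -2.02, or 425, 385 and 262 units. Every IQOS array lay above every other array, while the air and CS arrays were interleaved. The means were 1.06 ± 0.42 in IQOS, -1.54 ± 0.43 in CS and -1.78 ± 0.20 in air (SD, n = 3 each), so that IQOS exceeded air by 2.84 and CS by 2.60, and CS exceeded air by 0.24, within the spread of the arrays. The IQOS minus air difference ran from 2.64 to 3.06 as each array was left out and was 2.95 within the first array row (air 1 and air 2 against IQOS). The slide of the IQOS arrays differs from that of both other groups, and its part in the Plaat5 levels cannot be told apart from that of IQOS.

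Awat1 and Plaat5 thus stood apart from each other, one with signal in CS and the other highest in IQOS. Their Pearson correlation over the 9 arrays was -0.45, a description of arrays that share 3 groups, with 6 of the Awat1 values below background. By the same measure over 16501 tested genes, the 3 genes most like Awat1 were Atp6v0d2, a subunit of the vacuolar proton pump, Nabp1, a single-stranded DNA-binding protein, and Ctsd, the lysosomal protease cathepsin D, each with r = 0.992. Atp6v0d2 had mean levels of 0.21 ± 0.14 in air, 1.70 ± 0.20 in CS and 0.14 ± 0.13 in IQOS (SD, n = 3). Ctsd had 5.10 ± 0.04, 6.09 ± 0.12 and 5.17 ± 0.02, and Nabp1 -1.85 ± 0.01, -1.21 ± 0.04 and -1.90 ± 0.02, in the same order. All 3 genes were above background in air and IQOS too, unlike Awat1.

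The genes most like Plaat5 were Msi1, an RNA-binding protein (r = 0.992), Gm14488 (r = 0.990) and Lce6a, a gene of the late cornified envelope group of skin (r = 0.990). Their changes were smaller than that of Plaat5: Msi1 had mean levels of -1.43 ± 0.03 in air, -1.37 ± 0.07 in CS and -0.80 ± 0.16 in IQOS (SD, n = 3). Gm14488 had -1.44 ± 0.08, -1.32 ± 0.08 and -0.67 ± 0.13, and Lce6a -3.27 ± 0.07, -3.23 ± 0.11 and -2.68 ± 0.11, in the same order. Among the other acyltransferases, Dgat1 had the highest r with Awat1 (0.81) and Mogat1 the highest with Plaat5 (0.64), also as descriptions over the 9 arrays.

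By their brightest probes, none of the tested genes beside Awat1 and Plaat5 was called in the comparison that marked their neighbour. The 3 genes on either side of Awat1 were Otud6a, Igbp1 and Dgat2l6 on one side and P2ry4, Arr3 and Pdzd11 on the other. Otud6a, P2ry4 and Dgat2l6, the latter lying between Awat1 and Igbp1, were above background on 0 of the 9 arrays. Igbp1 differed by -0.07 ± 0.05 (SE) between CS and air, Arr3 by 0.22 ± 0.23 and Pdzd11 by -0.11 ± 0.06, and none of these passed the test (limma adjusted p 0.385, 0.572 and 0.230). Beside Plaat5, Atl3, Plaat3 and Lgals12 preceded it and the organic anion transporter genes Slc22a19, Slc22a26 and Slc22a27 followed. Slc22a19 and Slc22a26 were above background on 0 arrays and Slc22a27 on 1. Lgals12, a galectin of fat cells, differed by 0.30 ± 0.13 (SE) between IQOS and air and Atl3 by -0.15 ± 0.06, and neither passed the test (limma adjusted p 0.242 and 0.180). Plaat3 differed by 0.10 ± 0.12 on its brightest probe (limma adjusted p 0.653). Its second probe, described below, was called higher in IQOS than in air (0.43 ± 0.06, limma adjusted p 0.0150).

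Of the 8 genes not chosen by their levels, 7 could be tested. A probe was tested where it was well above background throughout at least 1 group, and it was called at a limma p-value, adjusted by Benjamini-Hochberg over 37258 probes, under 0.05. Where a gene had several probes, the brightest stood for the gene. Plaat1 had 1 probe, which was above background on 6 of 9 arrays (not air 1, CS 3 or IQOS 2) and was not tested. Its level was -6.26, -4.89 and -4.98 in air, -4.96, -4.74 and -7.51 in CS and -4.67, -5.58 and -4.68 in IQOS, and the 3 groups overlapped. CS 3 and air 1 lay well below the background limits of their arrays (-5.30 and -5.20).

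Between CS and air 1 of the 7 genes was called higher, Dgat1, and 0 lower, where 11.7% of 16593 tested genes were called (5.6% higher and 6.12% lower). At an unadjusted p under 0.05 there were 2 (Dgat1 and Awat2). Between IQOS and air 0 of 7 were called (background 2.87%, with 1.99% higher and 0.886% lower), with 1 at an unadjusted p under 0.05. Between IQOS and CS 0 of 7 were called (background 10.1%, with 4.94% higher and 5.18% lower), with 2 at an unadjusted p under 0.05. With 7 genes, these counts cannot be told from the background shares. Counted by probe, 1 of 13 was higher (Dgat1) and 1 lower (the dimmer Mogat1 probe, not above background in CS) in CS than in air (background 10.3%, with 4.63% higher and 5.68% lower). By the same count 1 was higher in IQOS than in air (background 3.72%, with 2.74% higher and 0.98% lower) and 1 higher in IQOS than in CS (background 9.64%, with 5.71% higher and 3.93% lower). The groups did not overlap for 6, 3 and 4 of the 13 probes, beside 35.1%, 29.1% and 32.8% of all tested probes, in the order CS against air, IQOS against air and IQOS against CS. CS minus air and IQOS minus air share the air arrays.

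Dgat1, which makes triacylglycerol in the endoplasmic reticulum, was higher in CS. Its level was 0.04, 0.05 and -0.02 in air, 0.58, 0.82 and 1.08 in CS and 0.46, 0.11 and 0.46 in IQOS. All CS arrays lay above all IQOS arrays, and all IQOS arrays above all air arrays. Dgat1 rose by 0.81 ± 0.14 (SE) in CS against air, or 1.75-fold (limma adjusted p 0.0158). IQOS exceeded air by 0.32 ± 0.14 and fell short of CS, a change of -0.48 ± 0.14, and neither difference passed the test (limma adjusted p 0.227 and 0.0679). The call for CS ended without air 1 (adjusted p 0.0610) or CS 2 (0.0544), and after adjusting for array row (0.124), where the change was 0.85, the value within the second row.

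Dgat2, the other triacylglycerol-forming enzyme, did not pass the test in any comparison. Its level was 2.11, 2.12 and 2.22 in air, 2.37, 2.51 and 2.27 in CS and 1.96 to 2.39 in IQOS. The CS arrays lay above the air arrays by a small margin, with a change of 0.23 ± 0.12 (SE; 95% interval -0.05 to 0.51; limma adjusted p 0.246). The change was 0.09 ± 0.12 for IQOS minus air and -0.15 ± 0.12 for IQOS minus CS (limma adjusted p 0.716 and 0.470).

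Awat2, the wax synthase related to Awat1, read lower in CS than in air, without passing the test. The brighter of its 2 probes read -2.74, -2.90 and -2.68 in air, -3.32, -3.32 and -2.91 in CS and -3.19, -2.91 and -2.87 in IQOS. All CS arrays lay below all air arrays, and the IQOS arrays spread over both ranges. The change was -0.41 ± 0.14 (SE) for CS minus air (95% interval -0.73 to -0.10; limma adjusted p 0.0929), and without CS 3 it was called (adjusted p 0.0467). IQOS minus air was -0.22 ± 0.14 (limma adjusted p 0.395). The second probe, for another Awat2 transcript, was dimmer and not above background on CS 1, CS 2 and IQOS 1. It read -4.76, -4.82 and -4.66 in air, -5.26, -5.17 and -4.64 in CS and -5.55, -4.37 and -4.20 in IQOS, and its CS minus air change of -0.27 ± 0.33 had the same sign.

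The 2 probes of Mogat1, which forms diacylglycerol from monoacylglycerol, disagreed in sign. The brighter probe read -1.83, -1.80 and -1.77 in air, -1.90, -1.46 and -1.73 in CS and -1.83, -1.35 and -1.27 in IQOS. The CS arrays lay on both sides of the air arrays, with a change of 0.10 ± 0.16 (SE; limma adjusted p 0.723), and IQOS minus air was 0.31 ± 0.16 (limma adjusted p 0.300). The dimmer probe read -4.93, -5.06 and -4.87 in air, -5.50, -5.61 and -5.72 in CS and -4.90, -5.47 and -5.02 in IQOS. It was above background on 3 air, 0 CS and 2 IQOS arrays, so the CS mean is a limit. The fold is a bound on the scanner's background-subtracted signal, at least 1.21-fold lower than air (limma adjusted p 0.0311). The probe passed the filter on dim probes through air alone, the group where it is high, so its p-value rests on CS values that are not above background. That call ended when air 1, air 2, air 3, CS 2 or CS 3 was left out and after adjusting for array row (adjusted p 0.167), normexp, no filter on dim probes, or an intensity trend with robust variances.

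Mogat2, the intestinal type of the same enzyme, varied more within air (SD 0.63) and within CS (SD 0.53) than between the group means, but little within IQOS (SD 0.07). Its level was -4.05, -2.95 and -4.02 in air, -3.40, -3.10 and -4.14 in CS and -3.90, -3.78 and -3.90 in IQOS. Air 2, CS 1 and CS 2 were high and the other arrays of both groups low. The change was 0.13 ± 0.34 (SE) for CS minus air, with a 95% interval from -0.66 to 0.91 (limma adjusted p 0.840), and -0.19 ± 0.34 for IQOS minus air (limma adjusted p 0.786). The sign of both changes turned when some arrays were left out.

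**Figure D2:**
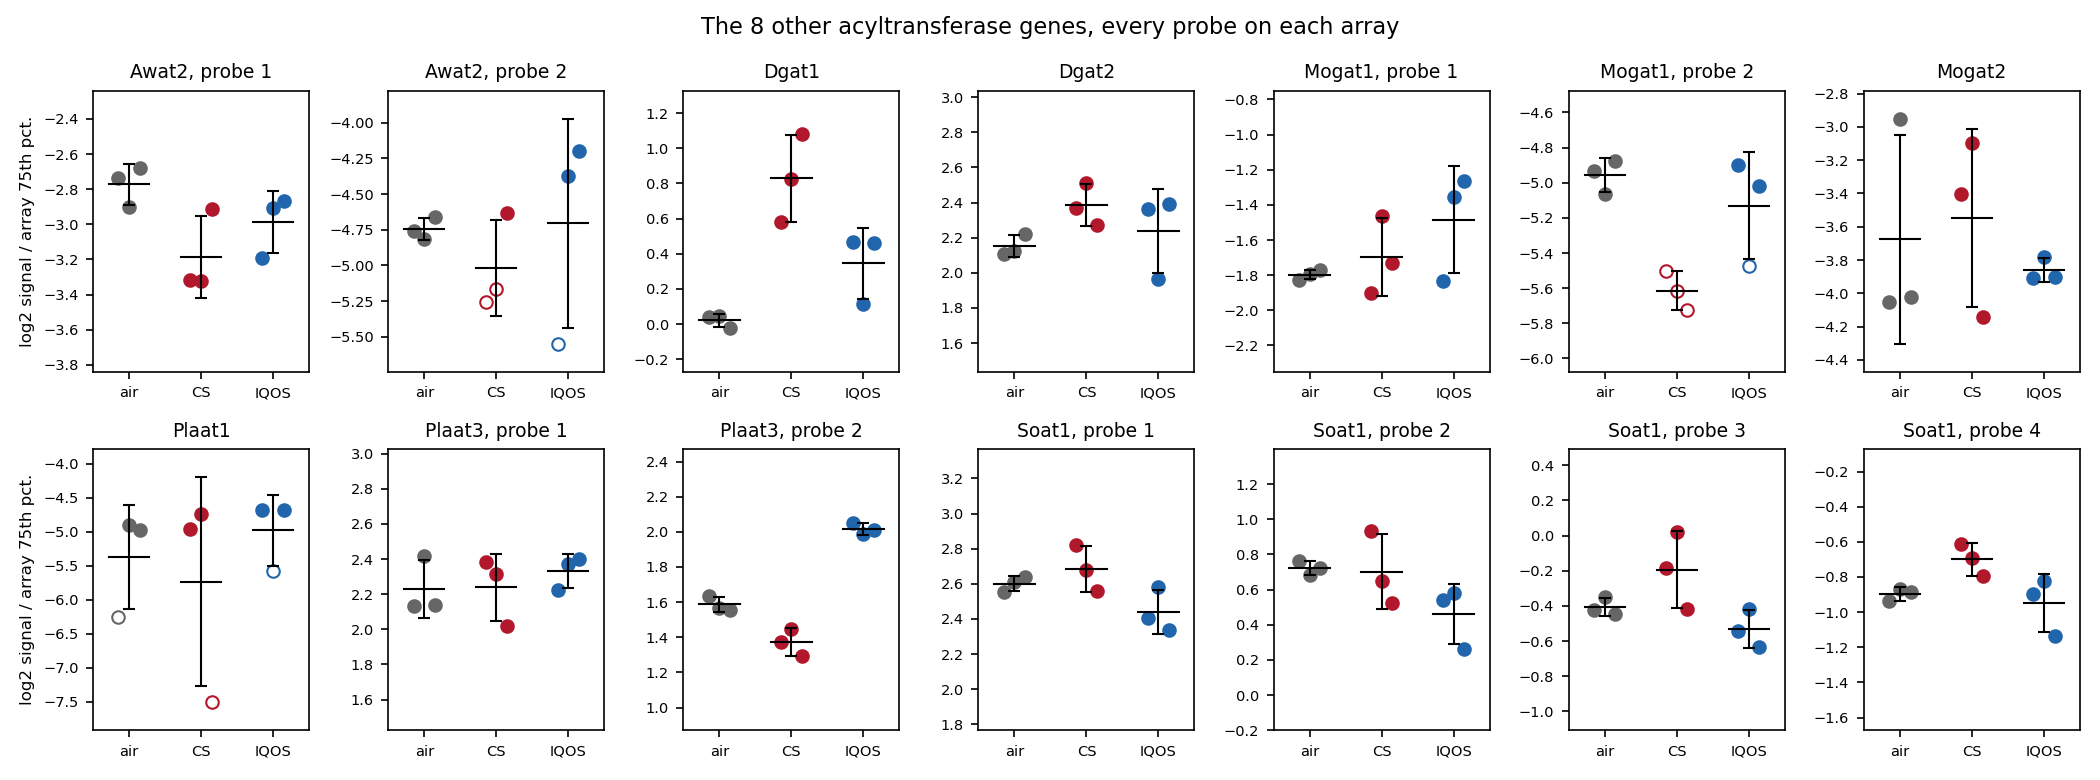
Level of the 8 genes not chosen by level on each array, 1 panel per probe, as log2 of signal over the array's 75th percentile on the y axis (each panel has its own range) and group on the x axis. Filled points are well above background, open points are not, and lines and bars are group means ± SD (n = 3). Dgat1 separates CS (0.58 to 1.08) from air, and Plaat3 probe 2 separates IQOS (1.99 to 2.05) from air and CS.

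Plaat3, a phospholipase abundant in fat tissue and the paralog next to Plaat5, was also read by 2 probes that disagreed. The brighter probe read 2.13, 2.42 and 2.14 in air, 2.38, 2.31 and 2.02 in CS and 2.22, 2.37 and 2.40 in IQOS. The 3 groups overlapped, with changes of 0.01 ± 0.12 (SE) for CS minus air and 0.10 ± 0.12 for IQOS minus air (limma adjusted p 0.963 and 0.653). The second probe read 1.64, 1.57 and 1.56 in air, 1.38, 1.45 and 1.29 in CS and 2.05, 1.99 and 2.01 in IQOS, with the groups in the order CS, air, IQOS and no overlap.

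On that second probe Plaat3 rose by 0.43 ± 0.06 (SE) in IQOS against air, or 1.35-fold (limma adjusted p 0.0150), and by 0.64 ± 0.06 in IQOS against CS, or 1.56-fold (limma adjusted p 0.0023). CS minus air was -0.22 ± 0.06 (limma adjusted p 0.0613). The call for IQOS against air ended without air 1, air 3 or IQOS 2 and after adjusting for array row (adjusted p 0.0592, change 0.41), and that for IQOS against CS after adjusting for array row (adjusted p 0.124, change 0.60). Beside it, the difference of Plaat5 was 2.84 for IQOS minus air. For the brighter Plaat3 probe the 95% interval of that difference was -0.17 to 0.38. The IQOS arrays lay on a slide of their own.

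Soat1, the enzyme that esterifies cholesterol in macrophages and most other cells, was read by 4 probes, of which 0 were called in any comparison. The brightest read 2.55, 2.61 and 2.64 in air, 2.82, 2.68 and 2.56 in CS and 2.40, 2.58 and 2.34 in IQOS. Its change was 0.08 ± 0.09 (SE) for CS minus air, -0.16 ± 0.09 for IQOS minus air and -0.25 ± 0.09 for IQOS minus CS (limma adjusted p 0.573, 0.337 and 0.123). All 4 probes read lower in IQOS than in CS, with changes of -0.25, -0.24, -0.34 and -0.25, and the lowest of their limma adjusted p was 0.0989. They share their RNA, so they are not 4 independent results.

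**Figure D3:**
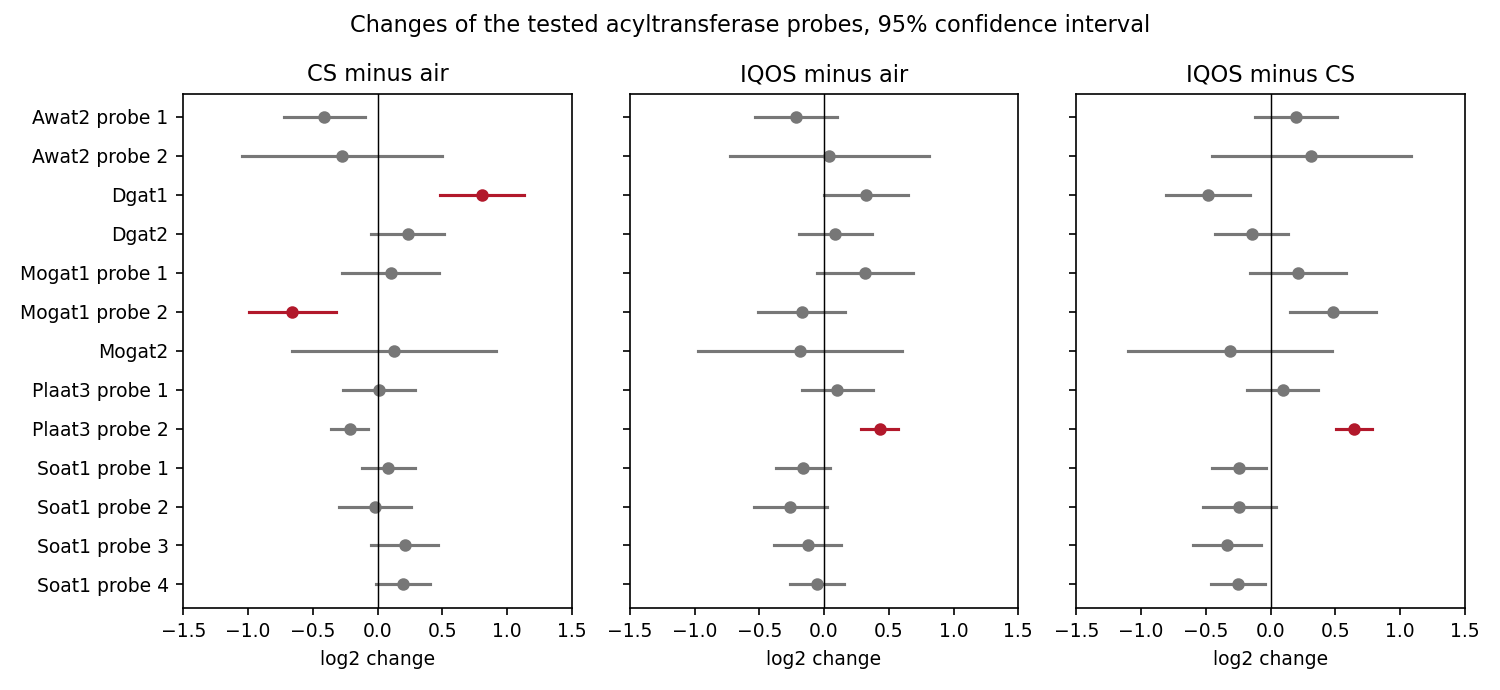
Change of each of the 13 tested probes of the 7 genes in the 3 comparisons, on the log2 scale on the x axis, with probes on the y axis. Points are changes with their 95% confidence interval from the limma fit, and red marks an adjusted p under 0.05. Dgat1 (0.81) and Mogat1 probe 2 (not above background on any CS array) are called for CS minus air, and Plaat3 probe 2 for both comparisons of IQOS (0.43 and 0.64).

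The genes that surround these enzymes were followed in 9 lists with 127 genes, of which 115 were tested. In CS against air 18 of them (15.7%) were called, in IQOS against air 3 (2.6%) and in IQOS against CS 10 (8.7%), beside 11.7%, 2.87% and 10.1% of all tested genes, and the genes below are described singly. The median change over all tested genes was -0.02, -0.01 and 0.02 in that order. Of the wax ester and DGAT2 relatives (Dgat2l6, the fatty alcohol reductases, Elovl and Scd genes), 4 of 8 were tested and 0 called in CS against air, also 0 at an unadjusted p under 0.05, with a median change of -0.01. Of the 14 genes that lead from glycerol phosphate to diacylglycerol, 0 were called (3 at an unadjusted p under 0.05; median 0.01). Of 8 tested MBOAT relatives, Mboat2 was lower, by -0.32 ± 0.08 (SE; limma adjusted p 0.0473; 3 at an unadjusted p under 0.05; median 0.02).

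Of 13 genes of cholesterol handling 4 were called higher in CS and 0 lower, beside 5.6% higher over all genes, with a list median of 0.19. The other 9 did not pass, among them Nr1h3 (-0.31), Mylip (-0.20) and Npc1 (-0.10), and of the 4 calls only that of Msr1 held without each array. The scavenger receptor Msr1 rose by 1.71 ± 0.19 (SE; limma adjusted p 0.0049), from air levels of which 1 of 3 was above background, so that its size is uncertain (0.78 with normexp background correction). The lysosomal cholesterol carrier Npc2 rose by 0.45 ± 0.10, the exporter Abcg1 by 0.35 ± 0.08 and the lipoprotein receptor Scarb1 by 0.29 ± 0.07. Among 17 genes of fatty acid uptake and activation 1 was higher and 3 lower (median 0.03). The fatty acid binding protein Fabp1 fell by 1.95 ± 0.21 on the log2 scale (limma adjusted p 0.0048), the transporters Slc27a6 and Slc27a3 by 0.75 ± 0.19 and 0.49 ± 0.11, and Slc27a4 rose by 0.34 ± 0.08.

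Lipid droplet proteins and hydrolases moved in both directions in CS. Of 14 droplet proteins, Cideb rose by 0.79 ± 0.13 (SE) and Plin5 by 0.64 ± 0.16, and Plin4 fell by 0.63 ± 0.16, with a list median of -0.11. Of 18 neutral lipid hydrolases and cofactors 2 were higher and 3 lower (median -0.14). The carboxylesterases Ces1g and Ces1d rose by 1.95 ± 0.48 and 0.25 ± 0.06. Pnpla3, above background on 1 of 3 CS arrays, was called lower, with a change of uncertain size (-1.07, and -0.39 with normexp). G0s2, the inhibitor of the main triacylglycerol lipase, fell by 0.53 ± 0.10 and Nceh1, a hydrolase of cholesteryl ester, by 0.41 ± 0.08. Of 16 phospholipases Pnpla7 rose by 0.72 ± 0.12 (median 0.13), and of 11 genes of N-acylethanolamine metabolism 0 were called (3 at an unadjusted p under 0.05). Scarb1, Slc27a6, Ces1g and Ces1d were named after their values were seen, since fewer genes per list were to be named.

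With IQOS 3 list genes were called against air: Scarb1 rose by 0.43 ± 0.07 (SE), the cannabinoid receptor Cnr2 by 0.49 ± 0.06, and G0s2 fell by 0.49 ± 0.10 on the log2 scale (limma adjusted p 0.0227, 0.0111 and 0.0478). The N-acylethanolamine list, to which the reaction of Plaat5 belongs, had a median change of 0.05, with Cnr2 as its 1 called gene of 11. Against CS, IQOS was lower in Msr1 (-1.33 ± 0.19), Npc2 (-0.42 ± 0.10) and Abcg1 (-0.37 ± 0.08), and higher in Fabp1 (1.83 ± 0.21), Cd36 (0.36 ± 0.07), Cnr2 (0.60 ± 0.06) and Hilpda (0.66 ± 0.16). It was also lower in Acsl4 (-0.35 ± 0.08), Lipa (-0.29 ± 0.07) and Pnpla7 (-0.58 ± 0.12).

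**Figure D4:**
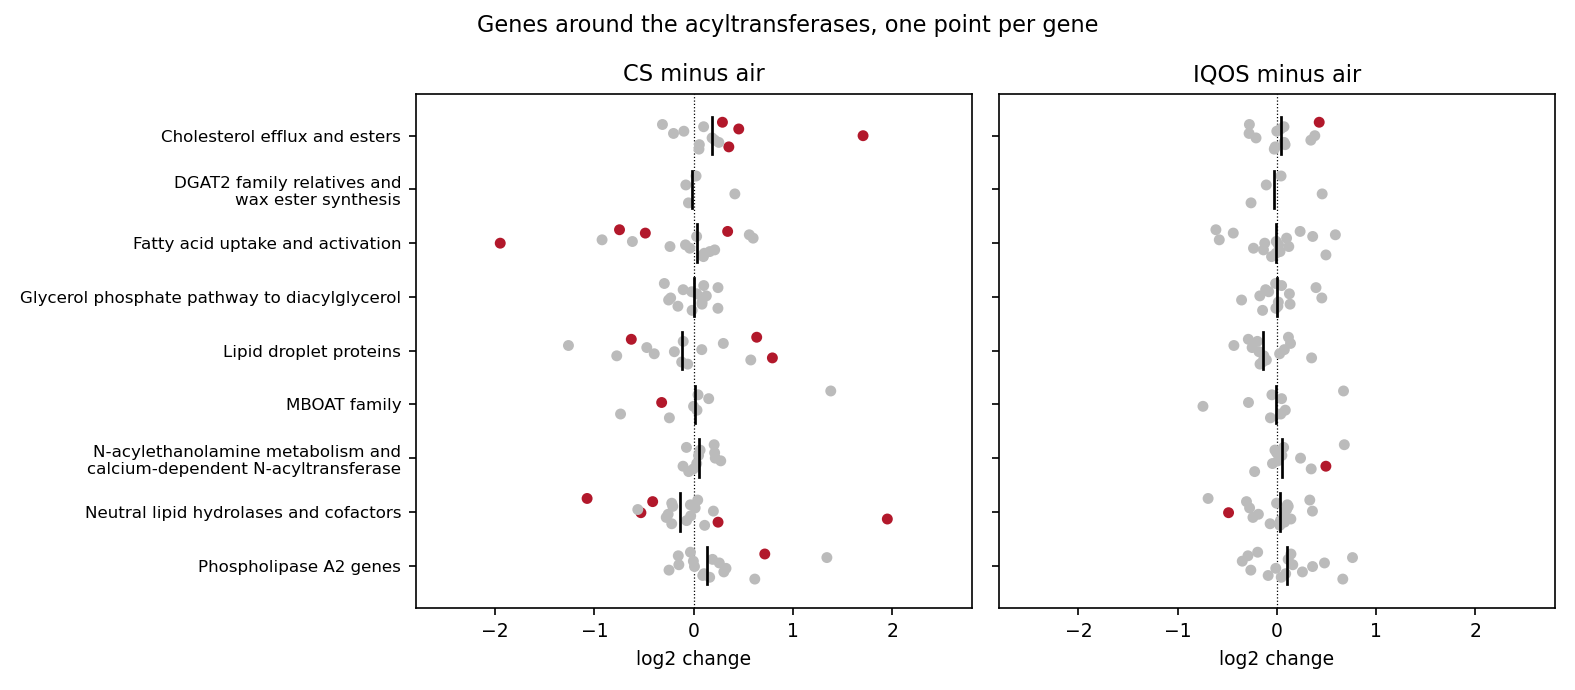
Change of the 115 tested genes of 9 lists, on the log2 scale on the x axis, for CS minus air (left) and IQOS minus air (right), with 1 row per list and 1 point per gene. Red points are called at an adjusted p under 0.05 and black bars are list medians. Red points are spread over 6 lists for CS (18 genes) and 3 lists for IQOS (3 genes).

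Most of these list calls ended when 1 array was left out. Without each array in turn, 2 of the 18 calls for CS against air held throughout (Msr1 and Fabp1), 0 of the 3 for IQOS against air and 3 of the 10 for IQOS against CS (Msr1, Fabp1 and Cnr2). For CS against air the other 16 ended without air 1 and without CS 2, and 5 to 13 of them ended without each of the other arrays. For Cideb and Pnpla7 air 1 and CS 2 were the only such arrays. For IQOS against air all 3 ended without air 1 and without IQOS 2, and for IQOS against CS the other 7 ended without CS 2 and without CS 3. With array row as a covariate, Fabp1 remained called for CS against air and Cnr2 for IQOS against air, and 0 of the 10 for IQOS against CS. Msr1 then had a CS minus air change of 1.49 (adjusted p 0.0621).

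Markers of cell types moved with CS as well. In bulk lung, a change in the number of cells of a type and a change in RNA per cell cannot be told apart. The summed level of 12 measured alveolar macrophage markers, as a linear multiple of the 75th percentile, was 144 to 173 in air, 288 to 376 in CS and 163 to 197 in IQOS. Of these 12, 6 were called higher and 1, Fabp1, lower in CS than in air, beside 5.6% and 6.12% of all tested genes. Between IQOS and air 0 of 12 were called, beside 2.87% of all tested genes. Without a call, Marco read 2.63, 2.34 and 2.25 in IQOS beside 1.71, 0.75 and 1.12 in air. Pparg went the other way, at 1.23, 1.32 and 1.43 in IQOS beside 1.45, 1.63 and 1.55 in air. Chil3 was the largest part of the macrophage sum (levels 6.19 to 6.39 in air, 7.41 to 7.89 in CS and 6.32 to 6.71 in IQOS). The sum of 8 neutrophil markers was 183 to 230 in air, 334 to 750 in CS and 174 to 432 in IQOS. Of these 8, 1 was called higher in CS than in air, beside 5.6% of all tested genes. In IQOS against air 0 were called, beside 2.87%. Most of the neutrophil sum came from S100a8, S100a9 and Csf3r, and Csf3r was flat (levels 6.69 to 6.80 in air, 6.66 to 6.76 in CS and 6.63 to 6.83 in IQOS). IQOS 2 stood apart from the other IQOS arrays in the neutrophil markers other than Csf3r, as in S100a8 (6.33, 3.94 and 6.34 on IQOS 1 to IQOS 3). The Awat1 signal and the rises of Dgat1 and Msr1 were all read in CS, which has only 3 arrays, so their coming together says nothing more. Within CS 1 to CS 3 Awat1 read -1.08, -2.76 and -1.38 and Dgat1 0.58, 0.82 and 1.08, in unlike orders. On these arrays Chil3 read 7.89, 7.41 and 7.71, in the order of Awat1, and S100a8 5.83, 6.84 and 7.53, in that of Dgat1. Mrc1, a further macrophage marker (2.23, 2.12 and 2.27), followed neither order. An order of 3 arrays carries no test. The part of macrophages and neutrophils in these values was not tested.

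Markers of the sebaceous gland and skin, where Awat1 is best known, gave summed levels that overlapped between the groups. The sum over 12 genes was 8.22 to 11.9 in air, 8.90 to 12.1 in CS and 9.94 to 13.6 in IQOS. Krt79 made up most of each sum (levels 2.51 to 3.20 in air, 2.69 to 3.23 in CS and 2.88 to 3.44 in IQOS). Krt79 is also on the alveolar macrophage list, so the sum says little about the other genes or about such cells. Dsg1a, Fa2h and Dgat2l6 were above background on 0 of 9 arrays. Elovl3, a sebaceous fatty acid elongase, was above background on CS 2 only (level -1.90), the CS array with the lowest Awat1. Krt1, a skin keratin, was above background on CS 1 and CS 3 only (levels -4.18 and -4.74), the CS arrays with the higher Awat1. Of 6 tested genes 1 was called lower in CS than in air, beside 6.12% of all tested genes. In IQOS against CS 1 was called higher, beside 4.94%. Krt10 read -0.38, -0.47 and -0.64 in CS beside -0.10, -0.10 and 0.03 in air. Lor went the other way, at -2.69, -2.59 and -2.39 in CS beside -2.90, -2.81 and -3.14 in air, and was not called. The CS and air ranges of Mc5r, Krt14, Scd3 and Krt79 overlapped. The part of such cells in the Awat1 signal was not tested. Adipocyte markers summed to 36.9 to 57.4 in air, 16.4 to 35.1 in CS and 31.6 to 56.2 in IQOS. Of 9 tested genes 0 were called for CS or IQOS against air, beside 11.7% and 2.87% of all tested genes. The part of adipocytes in the values of Plaat3, Dgat2 and the droplet proteins was not tested. Plaat5 is known from testis, and of 8 germ cell markers Prm1, Acrv1, Odf1 and Smcp were above background on 0 arrays, while Prm2 and Spata18 were above it on all 9, Tnp1 on all 3 air and all 3 IQOS arrays (-3.63, -4.79 and -4.65 in air, -3.23, -4.48 and -3.74 in IQOS) and Tnp2 on 0 air and 2 IQOS arrays. Their sum was 0.576 to 0.599 in air and 0.575 to 0.652 in IQOS. Spata18 made up most of it (levels -1.34 to -1.07 in air and -1.46 to -1.08 in IQOS), so the sum says little about the other genes. Of 3 tested genes 0 were called between IQOS and air, beside 2.87% of all tested genes, with a median change of 0.15. The part of germ cells in the Plaat5 levels was not tested.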

How the data were processed

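Whole-lung RNA of 3 air, 3 CS and 3 IQOS arrays was read as spot intensity. The authors' scanner software, Agilent Feature Extraction (version 10.7.1.1 in the file headers and the submitters' processing notes), subtracted background and did not scale arrays to each other. In the series matrix the authors deposited each value is a linear ratio to each array's 75th percentile, a scale found from its values (column medians 0.114 to 0.121, no log, no centring, larger when brighter) and used as an alternative. From the deposited intensities, log2 signals were averaged per probe, leaving out controls and outlier spots, and each array's log2 75th percentile was subtracted. Of 56605 probes 37258 passed the filter on dim probes, which needed a value on at least 2 arrays of each group. Accessions were matched to RefSeq, naming 32994 probes (58.3%). The fit used all 9 arrays (limma 3.58.1 under R 4.3.3), p-values were adjusted over all tested probes, and the fit was tested on simulated data. Array signal over background, and the number of arrays, limit the precision.

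The members, gene lists and naming rule were chosen with earlier results of these data known. The rule named all members, up to 3 called genes of smallest p per list and comparison, and the 3 genes most correlated with Awat1 and with Plaat5. Alternatives covered background correction (normexp, offset 50, on the median signal columns), scaling, the dim filter, the variance model, array row, the replicate number, the thresholds, the choice of probe and each array left out. Same-numbered arrays did not deviate together in every pair, so replicate numbers were not treated as pairs. Slide could not be a covariate.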

Additional observations from a re-analysis of the deposited data

How the results depend on the processing

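Counts of called acyltransferase genes were small and depended on the setting. For CS against air (1 of 7), the count was 0 with array row as a covariate, 2 at an adjusted p under 0.1, 0 with a minimum of 2-fold and 0 to 2 as each array was left out (0 without air 1 or CS 2, 2 without CS 3). For IQOS against CS (0 of 7) it was 2 with normexp (Dgat1 and Soat1), 1 at an adjusted p under 0.1, 2 with the mean of a gene's probes (Mogat1 and Plaat3) and 0 to 1 as each array was left out. For IQOS against air it was 0 in every setting run. The cause was not tested.

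Signs turned for a few small changes. For Mogat1, CS minus air was -0.28 when the mean of both probes replaced the brighter one. The brighter probe alone gave -0.018 to 0.20 as arrays were left out. Mogat2 ranged over -0.10 to 0.49 for CS minus air and -0.38 to 0.17 for IQOS minus air. For Plaat3, CS minus air was -0.10 when the mean of both probes replaced the brighter one. The brighter Plaat3 probe alone gave -0.060 to 0.12 for CS minus air as arrays were left out. For IQOS minus CS it gave -0.045 with array row and -0.016 to 0.16 as arrays were left out. Of 670 values of the acyltransferase probes over the alternatives, 630 counted as the same. For the tested probes this meant the same direction and side of the threshold. For Awat1, Plaat5 and the values within an array row it meant a shift under the spread between replicates, without regard to the threshold. A filter on all 9 arrays leaves no value for Awat1, and normexp brought its IQOS minus CS difference from -6.08 to -2.82.

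Over all probes, 1725 were higher and 2115 lower for CS minus air, 1022 and 365 for IQOS minus air, and 2126 and 1464 for IQOS minus CS. Array row as a covariate left 150 and 203, 263 and 46, and 76 and 19. Without the filter there were 778 and 763, 305 and 51, and 1009 and 649. With only the 2 groups compared there were 1352 and 1370, 342 and 66, and 1042 and 668. At an adjusted p under 0.1 there were 3088 and 4010, 2081 and 1200, and 3853 and 2670. Without air 1 there were 361 and 364, and 114 and 10, in both comparisons with air, and without CS 2 there were 795 and 478 for IQOS minus CS. Normexp moved the higher share of IQOS minus air calls from 73.7% to 54.7%. No setting moved the median of all probes by over 0.1. Air 3 is the only air array in the second row, so the array row term rests on air.

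Same-numbered arrays correlated by -0.08, -0.04 and -0.06 for CS and air, 0.08, 0.20 and 0.17 for IQOS and air, and 0.13, 0.01 and 0.16 for IQOS and CS. With a replicate block the count of acyltransferase genes called was 1, 0 and 0, as without it, and 1518 and 1731, 441 and 99, and 1630 and 1092 probes were called in the 3 comparisons. Among the air arrays, each IQOS array correlated best with the one of its own number, a hint from the data and not the design.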
